A study of Mus musculus with 4 samples.

Results

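Cdx1, Cdx2, Gata4, Gata5, Gata6, Hnf4a and Hnf4g encode transcription factors that differ in their reach along the gut. They were taken by symbol and form 7 of 20906 condensed genes of the mouse build mm9. A condensed gene is a group of annotated exon blocks that known splice junctions join. All 7 were found, and all 7 were among the 15521 genes with at least 10 uniquely placed reads summed over the 4 libraries.

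CDX1 and CDX2 are homeodomain proteins that give the gut epithelium its intestinal identity, and both are known from small intestine and colon. GATA4, GATA5 and GATA6 are zinc finger proteins, of which GATA4 is known for holding the absorptive program of the upper small intestine and GATA6 for a wider range that includes the colon. HNF4A and HNF4G are nuclear receptors that bind the same kind of DNA site and drive enterocyte genes of lipid transport and the brush border.

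RNA came from whole small intestine and whole colon of C57BL/6 mice aged 9 to 10 weeks, kept without specific pathogens and given no treatment, and the labels name no genetic change. According to the study's methods the pieces were jejunum and distal colon. For each tissue, polyadenylated RNA was copied from an oligo-dT primer, amplified and then broken (cDNA fragmented protocol), and a further library was made with a whole transcriptome kit from RNA that the labels describe as depleted of ribosomal RNA (rRNA-depleted protocol). The read totals of these last 2 libraries are not those that the study lists for that kit, so whether its methods describe them is not settled. The study describes both tissues as coming from the same mice, but no source ties a library to an animal. Each tissue and protocol has 1 library. The p-values below therefore measure only a spread between these samples that is pooled over genes and may be technical.

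The libraries differed in depth and in content. Uniquely placed reads numbered 22484041 and 24798934 for small intestine and colon by cDNA fragmentation, and 2035386 and 3478387 by rRNA depletion. The tissue labels held for defining epithelial genes, as 5 of 5 small intestine markers were higher in small intestine and 4 of 4 colon markers in colon. Markers of gut segments were mixed. Of the 2 ileal genes, Fabp6, a bile acid binding protein, stood at 1185 and 311 RPKM in the small intestine libraries and at 32.4 and 5.20 in the colon libraries, while Slc10a2 stood at 13.3 and 49.2 against 29.04 and 102 RPKM. Of the 3 proximal genes, Gkn1 had 33 reads in the cDNA fragmented colon library alone, Tff1 had none, and Pdx1, a factor of the duodenum and pancreas, stood at 5.73 RPKM in the rRNA-depleted small intestine library and at no more than 0.0346 elsewhere. Summed RPKM of 6 pancreatic acinar genes was 18.4 (small intestine) and 723 (colon) by cDNA fragmentation, and 2188 and 295 by rRNA depletion. Ctrb1, a pancreatic protease precursor, had 3, 1773, 1595 and 5 reads in that order, Pnlip had 0, 2229, 1110 and 3, and Amy2a5 had none in any library. Epithelial marker sums were 10544, 5183, 4730 and 6562 RPKM, and smooth muscle marker sums 305, 1276, 247 and 2436 RPKM. The part of these differences in the results below was not tested, and in whole tissue fewer cells of a type and less RNA per cell cannot be told apart.

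Sequences are shown for Hnf4g, whose first exon block and later blocks differed in tissue ratio, and for Gata4. Reads at the internal start of Hnf4g were not measured. Before the start of Gata4 occur letters known from the sites of another of the 3 families. All sequences were read from the mm9 genome on the strand of the gene, 5' to 3'. Each upstream window holds the 250 bases before an annotated start, and capitals mark matches on either strand to AGATAA (known from GATA sites), CAAAGTCCA (known from HNF4 sites) or TTTATNG (known from CDX sites). The letters AGATAA occurred in 8.51%, CAAAGTCCA in 0.449% and TTTATNG in 8.84% of 20732 such windows at starts of named genes. The first pair of windows belongs to Hnf4g, whose exon blocks begin at the upstream start, while the GENCODE annotation also gives a transcript that begins at an internal start between the exon blocks numbered 1 and 2. The last window belongs to Gata4.
Hnf4g, upstream start, chr3:3507780-3508029, plus strand: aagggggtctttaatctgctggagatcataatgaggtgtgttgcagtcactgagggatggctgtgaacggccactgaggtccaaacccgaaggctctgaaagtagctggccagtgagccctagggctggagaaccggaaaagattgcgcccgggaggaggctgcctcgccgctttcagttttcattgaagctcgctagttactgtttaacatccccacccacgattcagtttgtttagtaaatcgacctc
Hnf4g, internal start, chr3:3633900-3634149, plus strand: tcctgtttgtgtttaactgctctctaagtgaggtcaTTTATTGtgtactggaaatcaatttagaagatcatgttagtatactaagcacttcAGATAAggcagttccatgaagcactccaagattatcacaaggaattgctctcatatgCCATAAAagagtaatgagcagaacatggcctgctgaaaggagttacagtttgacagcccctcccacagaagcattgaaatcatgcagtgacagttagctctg
Gata4, chr14:63864098-63864347, minus strand: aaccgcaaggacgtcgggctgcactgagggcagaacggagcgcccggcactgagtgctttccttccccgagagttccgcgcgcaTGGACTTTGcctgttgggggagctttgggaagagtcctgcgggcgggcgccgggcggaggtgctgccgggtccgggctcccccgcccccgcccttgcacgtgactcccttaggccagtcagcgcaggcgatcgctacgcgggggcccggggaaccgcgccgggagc
No match was found before the upstream start of Hnf4g. The window before its internal start held 1 match to AGATAA, at 159 to 154 bases before the start, and 2 to TTTATNG. The Gata4 window held 1 match to CAAAGTCCA on the opposite strand, at 166 to 158 bases before the start. The windows of Gata5, Hnf4a and Cdx2 held no match to these letters, and those of Cdx1 and Gata6 were not analysed singly here. A match is a description of letters, and binding was not measured here.

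The transcript from the internal start of Hnf4g opens with an exon at 3634150 to 3634347 whose coding bases are shown because they stand apart from the exons that were counted, with the start codon in capitals. No exon block of the deposited table overlaps this exon, so reads on it were not measured.
Hnf4g, coding bases of the internal exon, chr3:3634212-3634347, plus strand: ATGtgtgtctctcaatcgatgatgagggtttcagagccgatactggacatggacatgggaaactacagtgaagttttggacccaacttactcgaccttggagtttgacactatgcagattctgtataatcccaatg

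Levels were expressed as reads per 1000 bases of exon blocks and 1000000 uniquely placed reads (RPKM), with exact 95% Poisson intervals that cover counting error only. In the small intestine the HNF4 pair stood at the top in both protocols, and in the colon Hnf4a did, followed by Cdx1. By cDNA fragmentation the order in small intestine was Hnf4g, Hnf4a, Cdx1, Cdx2, Gata6, Gata5 and Gata4, from 290.2 down to 8.72 RPKM, and the intervals of Cdx1 with Cdx2, Cdx2 with Gata6 and Gata5 with Gata4 overlapped. In colon the order was Hnf4a, Cdx1, Cdx2, Hnf4g, Gata6, Gata5 and Gata4, from 111 down to 0.059 RPKM, with no overlap between neighbours. The rRNA-depleted colon library gave the same colon order, from 301 down to 0.42 RPKM, and there the intervals of Gata5 and Gata4 overlapped. In the rRNA-depleted small intestine library Hnf4a came before Hnf4g, Cdx2 before Cdx1, and Gata4 before Gata5 and Gata6, the last 2 of which overlapped. Gata4 lay above 68.7% and 88.3% of the tested genes in the small intestine libraries and above 2.91% and 10.9% in the colon libraries. Together the 7 genes took between 0.0735% and 0.232% of the reads of a library.

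**Figure D1:**
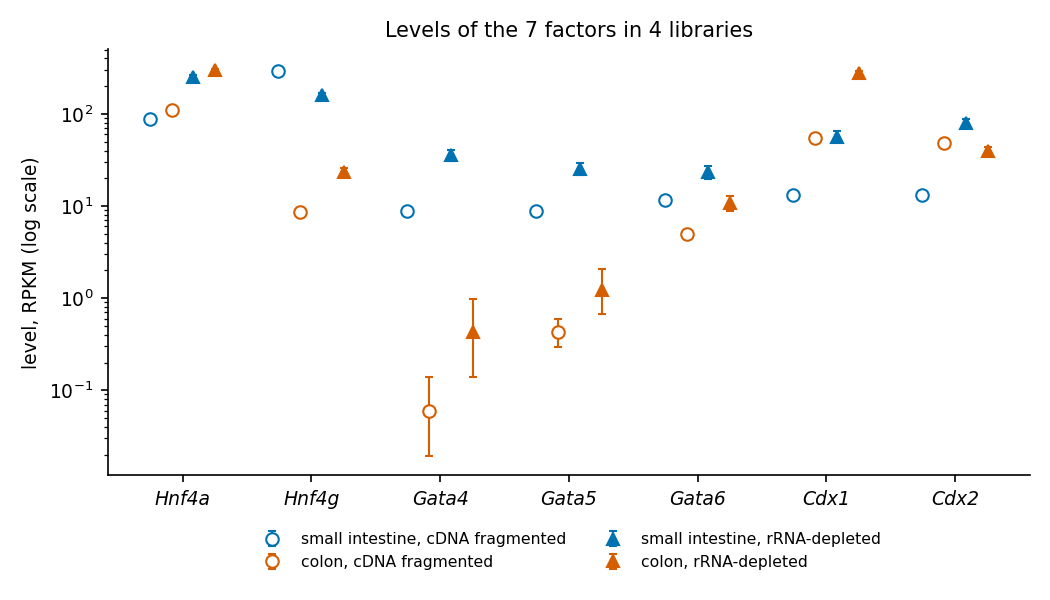
Levels of the 7 factors in RPKM on a log axis, with circles for cDNA fragmented and triangles for rRNA-depleted libraries, blue for small intestine and orange for colon, and bars for exact 95% Poisson intervals (1 library each). Gata4, Gata5 and Hnf4g are lower in both colon libraries, Cdx1 is higher in both, and Cdx2 changes its order between the protocols.

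The 3-fold rule of the study, set there on FPKM of transcripts, was applied here to RPKM of condensed genes. RPKM of one tissue is divided by that of the other plus a penalty of 1, and a gene is called at a quotient of at least 3. In the cDNA fragmented pair 3 of 7 factors were called higher in small intestine, against 2.89% of all genes, and 2 of 7 higher in colon, against 3.4%. In the rRNA-depleted pair 3 of 7 were called higher in small intestine, against 3.6%, and 1 of 7 higher in colon, against 6.33%. Hnf4g, Gata4 and Gata5 made up the small intestine calls in both pairs, and Cdx1 the colon call in both, with Cdx2 added by cDNA fragmentation alone. Cdx1 and Cdx2 were both lost in the cDNA fragmented pair with median-of-ratios factors or with start points (distinct mapped positions) in place of reads, Cdx2 alone was lost there with TMM factors, and Cdx1 was lost in the rRNA-depleted pair with start points. Start points have a ceiling, since each base offers only 1 on either strand. With 1 library on each side the calls by the 3-fold rule carry no p-value.

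A fit over the 4 libraries with limma, in which the protocol was a block, gave a tissue effect as log2 of colon over small intestine after TMM scaling. It called 4 of 7 factors higher in small intestine, against 8.15% of 15521 genes, and 1 of 7 higher in colon, against 6.11%, at a Benjamini-Hochberg adjusted p under 0.05. The median effect was -1.55 over the 7 factors and 0.0085 over all genes. The fit has 1 residual degree of freedom, set beside 80.2 prior degrees of freedom that carry the spread of all genes. An SE below therefore reflects mostly that shared spread and little of a gene's own libraries. Cdx2, whose log2 ratios lay 2.89 apart between the protocols, had an SE of 0.43. Hnf4a, at 0.063 apart, had an SE of 0.39. Without the protocol term the fit called 0 factors and 0 genes, with 823 genes and 3 of the factors at an unadjusted p under 0.05, and so the calls rest on the block. Without that term and with 1 library left out, Gata4 alone was called when the library left out was either small intestine one or the rRNA-depleted colon one, and no factor was called without the cDNA fragmented colon library. TMM lowered the log2 ratio of colon to small intestine by 0.37 in the cDNA fragmented pair and 0.33 in the rRNA-depleted pair relative to total reads, which matters for members with small differences.

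**Figure D2:**
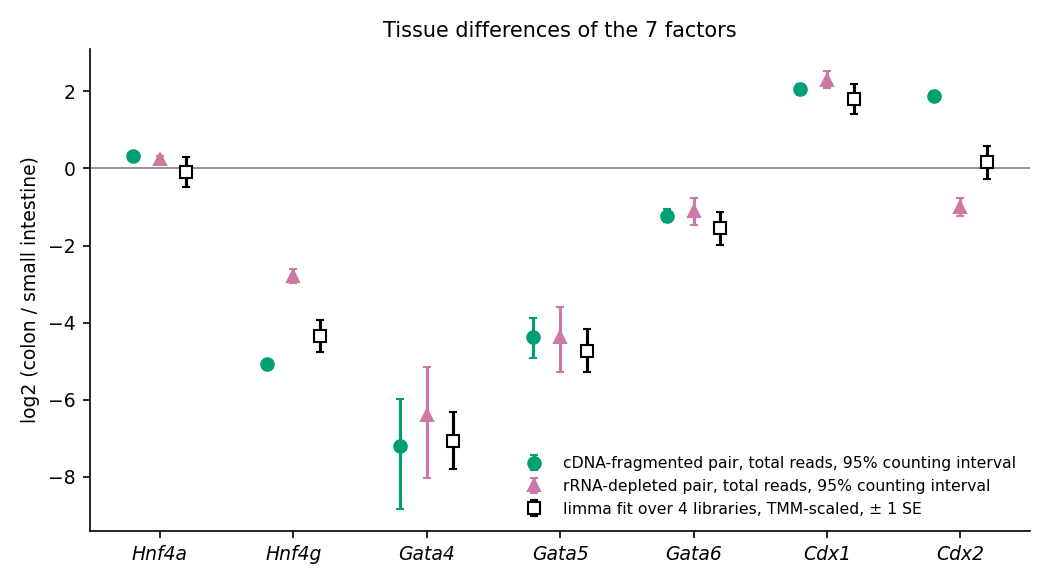
Log2 ratio of colon to small intestine for each factor, from total reads in the cDNA fragmented pair (circles) and the rRNA-depleted pair (triangles), with exact 95% counting intervals, and from the limma fit (squares, bars 1 SE). Hnf4g, Gata4, Gata5 and Gata6 lie below 0 in all 3, Cdx1 lies above 0, Hnf4a lies close to 0, and the circles and triangles of Cdx2 lie on opposite sides of 0.

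Hnf4a (chromosome 2, 163372924 to 163398643, plus strand, 10 exon blocks of 4358 bases) encodes the founding member of the HNF4 receptors and was close to even between the tissues by total reads. It was at 89.0 RPKM in small intestine and 111 in colon by cDNA fragmentation (8725 and 11971 reads), and at 253 and 301 RPKM in the rRNA-depleted libraries (2243 and 4566 reads). By total reads colon was 1.24-fold (1.21 to 1.28) and 1.19-fold (1.13 to 1.25) higher. The fitted effect was -0.092 ± 0.39 (SE, 2 libraries per tissue; limma adjusted p = 0.92), and its sign turned to 0.28 with no scaling factor, so no direction can be given for Hnf4a. Per read of the summed epithelial markers its log2 ratio of colon to small intestine was 1.44 in place of 0.31 by cDNA fragmentation, and 0.020 in place of 0.25 in the rRNA-depleted pair. The keratin gene Krt20, itself called higher in small intestine, held 65.4% and 47.6% of those marker reads by cDNA fragmentation, and without it the values were 0.85 and -0.14. The rescaling with Krt20 put Hnf4g at -3.94 in place of -5.07 and Cdx1 at 3.18 in place of 2.05 in the cDNA fragmented pair, with no change of direction.

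Hnf4g (chromosome 3, 3508030 to 3659800, plus strand, 10 exon blocks of 4180 bases) encodes the second HNF4 receptor, which is known mainly from gut, kidney and pancreas. It was at 290.2 RPKM in small intestine and 8.66 in colon by cDNA fragmentation (27272 and 898 reads), and at 159.9 and 23.2 RPKM in the rRNA-depleted libraries (1360 and 337 reads). Both small intestine libraries were thus above both colon libraries. The small intestine was 33.5-fold (31.3 to 35.8) higher in the first pair and 6.90-fold (6.12 to 7.79) in the second, 4.86 times apart. The fitted effect was -4.34 ± 0.41 (SE; limma adjusted p = 1.27e-14). Whether the protocols truly differ could not be tested with 1 library each. Counted by start points in place of reads, the log2 ratio fell in size from -5.07 to -2.92 in the first pair and from -2.79 to -2.02 in the second. Each start point held 5.09 reads on average in the cDNA fragmented small intestine library and 1.21 to 2.67 in the others. Start points have the ceiling given above. By cDNA fragmentation exon block 2, of 172 bases, had 280 start points in small intestine and 59 in colon. The most-read start point of Hnf4g held 22 of the 27272 small intestine reads. The part of the ceiling in the smaller ratios was not tested.

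The exon blocks of Hnf4g did not share 1 tissue ratio. The first block, from the upstream start shown above to 3508332, had 67 reads (9.83 RPKM) in small intestine against 42 reads (5.59 RPKM) in colon by cDNA fragmentation. In the rRNA-depleted libraries it had 5 reads (8.11 RPKM) against 8 reads (7.59 RPKM). The 9 blocks after it were 35.1-fold (32.7 to 37.6) and 7.04-fold (6.24 to 7.96) higher in small intestine, while the first block was 1.76-fold higher (1.18 to 2.65) in the first pair and 1.07-fold (0.275 to 3.70) in the second. The first block therefore held 0.246% (0.190 to 0.312, exact Clopper-Pearson) of Hnf4g reads in small intestine and 4.68% (3.39 to 6.27) in colon by cDNA fragmentation. In the rRNA-depleted libraries it held 0.368% (0.119 to 0.856) and 2.37% (1.03 to 4.62). Its share was larger in colon in both protocols, and the counting intervals of small intestine and colon did not overlap in either. In the colon the first block and the others were at 5.59 and 8.90 RPKM, and in the small intestine at 9.83 and 312, by cDNA fragmentation. In the rRNA-depleted libraries these values were 7.59 and 24.4 RPKM in colon, and 8.11 and 172 in small intestine. Of 114 junction reads of Hnf4g in the cDNA fragmented small intestine library, 62 joined neighbouring blocks and 52 joined blocks with others between them. The blocks numbered 1 and 2 were joined by 1 read. In that library 7 of 10 junction reads of Hnf4a and 4 of 5 of Gata6 also joined blocks with others between them. Whether such reads reflect skipped exons was not tested.

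The first block of Hnf4a, at 163372924 to 163373155, was also thin. It held 6 and 0 reads by cDNA fragmentation and 18 and 19 in the rRNA-depleted libraries, against 56 and 139, and 18 and 43, reads in the next block. Thin first blocks were not particular to the HNF4 pair. By cDNA fragmentation the first block had 0 and 5 reads in Cdx1, 0 and 0 in Gata4, 3 and 0 in Gata5, and 0 and 0 in Gata6. That of Cdx2 had 24 and 161 reads. For this protocol the study reports a 3' bias in long transcripts and a milder depletion of both ends in shorter ones. A count of 0 allows up to 3 reads. GENCODE places further first exons of Hnf4a upstream, from 163332544, and the deposited exon table holds none of them, so the use of that promoter was not measured. By cDNA fragmentation 9 of 10 Hnf4a blocks were higher in colon by total reads, and the first was the exception.

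**Figure D3:**
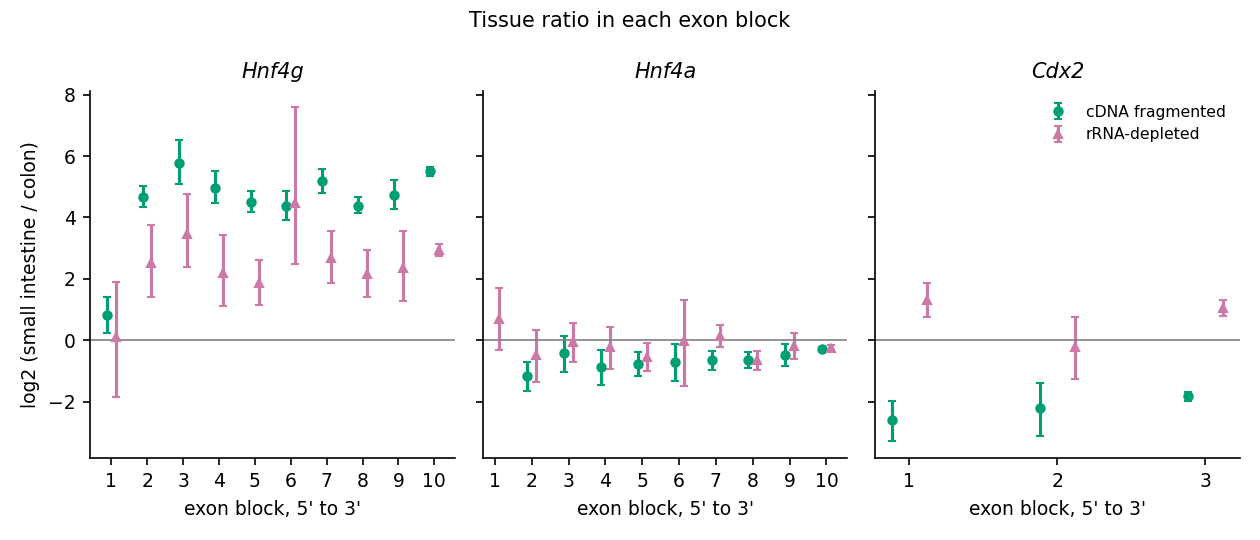
Log2 ratio of small intestine to colon in each exon block of Hnf4g, Hnf4a and Cdx2, numbered from the 5' end, by total reads with exact 95% counting intervals, circles for cDNA fragmented and triangles for rRNA-depleted pairs (1 library on each side). A block with 0 reads in a library is not drawn. The first Hnf4g block lies near 0 and its other 9 blocks lie far above, and circles and triangles of Cdx2 are on opposite sides of 0 in the first and last blocks.

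Ratios between paralogs in the same library do not depend on the scaling between libraries. Hnf4g stood at 3.26 (3.18 to 3.34) times the RPKM of Hnf4a in the cDNA fragmented small intestine library and at 0.0782 (0.0730 to 0.0837) times in colon. In the rRNA-depleted libraries the values were 0.632 (0.591 to 0.677) and 0.0769 (0.0687 to 0.0860). The colon values of the protocols lay within each other's counting intervals, whereas the small intestine values did not, so by reads Hnf4g was the larger part of the pair in 1 of 2 small intestine libraries and the smaller part in both colon libraries. By start points the ratio was 1.33 and 0.163 by cDNA fragmentation, and 0.736 and 0.210 in the rRNA-depleted libraries. No correction was made for the ceiling on start points. Whole-gene ratios also pool blocks that were covered unevenly. By cDNA fragmentation the last block held 92.1% of Hnf4a and 59.1% of Hnf4g reads in small intestine, and 89.8% and 43.5% in colon. In the rRNA-depleted libraries it held 79.2% and 75.1%, and 78.5% and 67.7%. The part of this in the ratios, and in the nearness of the colon values, was not tested.

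Gata4 (chromosome 14, 63817752 to 63864097, minus strand, 7 exon blocks of 3393 bases) had the widest gap of the 7. It had 665 and 245 reads in the small intestine libraries, at 8.72 and 35.5 RPKM, and 5 reads in each colon library, at 0.059 (0.019 to 0.139) and 0.42 (0.138 to 0.989) RPKM. The fitted effect over all reads was -7.06 ± 0.74 (SE; limma adjusted p = 5.67e-13). The colon reads were of lower match quality, since 0 of 5 in either colon library had at most 1 color mismatch, against 376 of 665 and 166 of 245 in small intestine. Of the 5 cDNA fragmented colon reads, 4 lay at 63860075 to 63860114 across a run of 10 identical bases in the 5' untranslated part of exon block 2. Over the whole gene, 1 of 665 and 1 of 245 small intestine reads lay across a run of at least 7. Without those reads 1 read would remain in that library, below the floor of 3 reads, which is 0.0357 RPKM there. With reads of at most 1 mismatch Gata4 was not detectable in colon, and small intestine was at least 137-fold and 98.8-fold higher, against the floor of 3 reads per library.

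Gata5 (chromosome 2, 180059793 to 180069384, minus strand, 6 exon blocks of 3302 bases) followed the same order. It was at 8.86 and 0.427 RPKM by cDNA fragmentation (658 and 35 reads) and at 25.4 and 1.22 RPKM in the rRNA-depleted libraries (171 and 14 reads). The small intestine was 20.7-fold (14.8 to 30.03) and 20.9-fold (12.1 to 39.0) higher, and the fitted effect was -4.72 ± 0.55 (SE; limma adjusted p = 4.84e-11). With reads of at most 1 mismatch the log2 ratios of colon to small intestine were -5.43 in place of -4.37 and -4.99 in place of -4.38. All 6 blocks were higher in small intestine in both pairs. Of the colon reads 10 of 35 and 6 of 14 had at most 1 mismatch, against 392 of 658 and 107 of 171 in small intestine. In the annotation 258 bases of Gata5 blocks overlap exons of Gm14318, and the cDNA fragmented libraries do not keep the strand, so reads of both genes cannot be told apart there.

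Gata6 (chromosome 18, 11052508 to 11085633, plus strand, 7 exon blocks of 3194 bases) was also lower in colon, by less than Gata4 and Gata5. It was at 11.7 and 5.01 RPKM by cDNA fragmentation (842 and 397 reads) and at 23.2 and 10.7 RPKM in the rRNA-depleted libraries (151 and 119 reads). The small intestine was 2.34-fold (2.07 to 2.64) and 2.17-fold (1.69 to 2.78) higher, which the 3-fold rule did not call, while the fitted effect was -1.55 ± 0.42 (SE; limma adjusted p = 0.0052). Per read of the summed epithelial markers, the log2 ratio of Gata6 was -0.097 in place of -1.23 by cDNA fragmentation and -1.35 in place of -1.12 in the rRNA-depleted pair. Without Krt20 in the sum they were -0.70 and -1.51. In the annotation 58 bases of Gata6 blocks overlap exons of 1010001N08Rik, and reads of both genes there cannot be told apart in the cDNA fragmented libraries.

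Within the GATA family the share of Gata6 was therefore larger in colon. It made up 40.0% and 27.6% of the summed GATA RPKM in the small intestine libraries and 91.1% and 86.7% in the colon libraries. The sum itself reached 29.3 and 84.1 RPKM in the small intestine libraries, against 5.50 and 12.4 in the colon libraries. Gata4 and Gata5 were even in the cDNA fragmented small intestine library, at a Gata5 to Gata4 ratio of 1.02 (0.911 to 1.13), and the ratio was 0.717 (0.586 to 0.875) in the rRNA-depleted one. No such ratio is given for colon, where Gata4 rests on 5 reads of low match quality.

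Cdx1 (chromosome 18, 61178517 to 61195853, minus strand, 3 exon blocks of 1749 bases) was the factor that was higher in colon throughout. It was at 13.2 and 54.6 RPKM by cDNA fragmentation (519 and 2370 reads) and at 56.5 and 279 RPKM in the rRNA-depleted libraries (201 and 1696 reads). Colon was 4.14-fold (3.76 to 4.56) and 4.94-fold (4.26 to 5.74) higher, and the fitted effect was 1.79 ± 0.40 (SE; limma adjusted p = 0.00038). All 3 blocks pointed to colon in both pairs. In the rRNA-depleted colon library 520 of the 1696 reads shared 1 start point, and without the most-read start point of each library the log2 ratio of that pair was 1.99 in place of 2.30. With start points in place of reads the log2 ratios were 1.34 in place of 2.05 and 0.82 in place of 2.30, and the fitted effect was 0.89 (limma adjusted p = 0.055), no longer past the threshold.

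Cdx2 (chromosome 5, 148112476 to 148118825, minus strand, 3 exon blocks of 2145 bases), the factor most used as a marker of intestinal epithelium, gave opposite answers in the protocols. It was at 13.0 RPKM in small intestine and 47.9 in colon by cDNA fragmentation (628 and 2550 reads), and at 79.0 and 39.3 RPKM in the rRNA-depleted libraries (345 and 293 reads). Colon was 3.68-fold (3.37 to 4.02) higher in the first pair, and small intestine 2.01-fold (1.72 to 2.36) higher in the second. The fitted effect was 0.16 ± 0.43 (SE; limma adjusted p = 0.87), so no tissue difference was called. By cDNA fragmentation each of the 3 blocks was higher in colon, with 24 and 161, 15 and 77, and 589 and 2312 reads from the first to the last block. In the rRNA-depleted pair the reads were 70 and 48, 14 and 28, and 261 and 217, of which the first and last blocks were higher in small intestine per total read. The opposite directions were therefore not a matter of 1 block.

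The order of Cdx2 over the 4 libraries, from 13.0 through 39.3 and 47.9 to 79.0 RPKM, was also the order of the summed acinar genes, from 18.4 through 295 and 723 to 2188 RPKM. Of that sum, Cela1 alone was at 18.3, 291, 544 and 496 RPKM in the same library order, which it does not follow at the top, and the other 5 genes summed to 0.1504, 4.17, 179 and 1693 RPKM. This is a description over 4 libraries, and its part in the Cdx2 values was not tested. The ratio of Cdx1 to Cdx2 was 1.01 (0.901 to 1.14) and 1.14 (1.08 to 1.21) for small intestine and colon by cDNA fragmentation, and 0.715 (0.597 to 0.853) and 7.10 (6.27 to 8.06) by rRNA depletion. The ratio thus lay between 0.715 and 1.14 in 3 libraries, and the rRNA-depleted colon library stood apart, with 87.7% of the CDX RPKM from Cdx1. By start points the ratio in that library was 2.37 in place of 7.10.

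**Figure D4:**
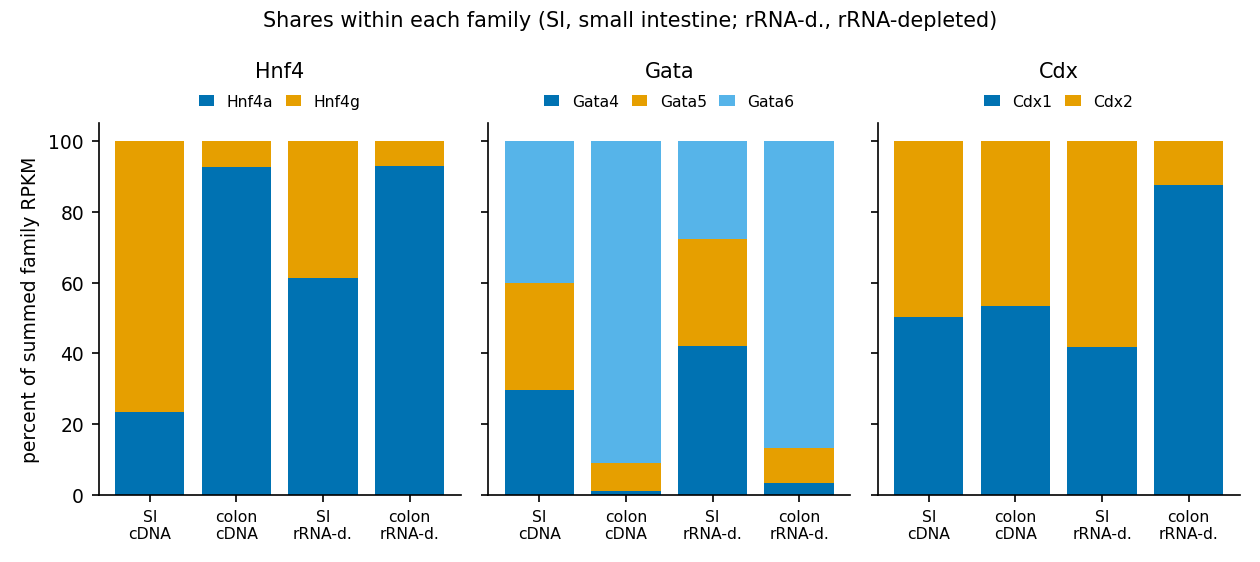
Percent of the summed RPKM of each family contributed by its members in each library (1 bar per library; SI, small intestine; rRNA-d., rRNA-depleted). Hnf4g falls to 7.25% and 7.15% and Gata6 rises to 91.1% and 86.7% in the colon libraries, while the CDX shares shift mainly in the rRNA-depleted colon library, where Cdx1 reaches 87.7%.

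To set the small intestine library with the lowest acinar level against the colon library with the lower one, the cDNA fragmented small intestine and rRNA-depleted colon libraries were placed side by side. Across these protocols Gata4 was at least 21.8-fold higher in small intestine with reads of at most 1 mismatch. With all reads Hnf4g was 12.5-fold (11.2 to 14.0) and Gata5 7.27-fold (4.30 to 13.4) higher in small intestine, and Gata6 was at 1.09-fold (0.903 to 1.34). Small intestine over colon came to 0.332 (0.288 to 0.382) for Cdx2, 0.296 (0.285 to 0.306) for Hnf4a and 0.0473 (0.0428 to 0.0523) for Cdx1. Tissue and protocol cannot be told apart in this comparison, and the levels of all factors but Hnf4g were higher in the rRNA-depleted small intestine library than in the cDNA fragmented one.

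Each member's closest genes were sought by the distance of log2(RPKM + 0.1) over the 4 libraries. Gata6 lay nearest to Smek1 (distance 0.411) and Faah (0.468), and Hnf4a to Rac1 (0.381) and Ctnnb1 (0.538), which encode a small GTPase and beta-catenin. Hnf4g lay nearest to Dpp4 (0.735), a brush border peptidase, and Slc15a1 (1.17), the intestinal peptide transporter. Dpp4 stood at 364 and 6.98 RPKM by cDNA fragmentation and at 127 and 16.6 in the rRNA-depleted libraries. Its likeness to Hnf4g in these values follows from how it was picked. Cdx1 lay nearest to Aldh2 (0.844) and Sdc1 (0.876), and Cdx2 to Rabggtb (0.838) and Rrbp1 (0.870). Gata4 lay nearest to Nos2 (1.44) and G6pc (1.58), and Gata5 to 2010001E11Rik (1.10) and Bend7 (1.32). These are distances over 4 libraries and carry no test.

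A wider list of gut transcription factors was counted beside them. The shares over all genes given above, 8.15% higher in small intestine and 6.11% in colon, are the background for this and the following lists. Of 19 listed factors 17 were tested, 4 were higher in small intestine, 1 was higher in colon and 12 did not pass the limma test, with a median effect of 0.13. The most abundant, Elf3, Klf4 and Isx, were among those that did not pass, with effects of 0.58 ± 0.39, 0.55 ± 0.39 and 0.059 ± 0.39. Onecut2, a cut-homeodomain factor of the duodenum, was at 2.06 and 0.108 RPKM by cDNA fragmentation and at 12.3 and 0.107 in the rRNA-depleted libraries, with an effect of -5.57 ± 0.61 (limma adjusted p = 4.98e-12). Creb3l3, a membrane-bound factor of lipid metabolism, was at 59.0 and 3.71, and 103.5 and 3.78 RPKM (effect -4.66 ± 0.45, limma adjusted p = 3.39e-14). The remaining called factors, named here after their values were seen, were Zfpm1 and Pdx1 in small intestine and Foxa2 in colon. Zfpm1, a cofactor that binds GATA proteins, was at 19.0 RPKM in the rRNA-depleted small intestine library and at 0.0357 to 1.61 in the others. Foxa2, a forkhead factor of the endoderm, had an effect of 2.23 ± 0.69 (limma adjusted p = 0.016). The GATA factors of blood cells were low, with Gata1, Gata2 and Gata3 at 2.97 RPKM or less in every library, and Cdx4 had no reads.

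Genes known to depend on the 7 factors were counted as listed. Several stand in more than 1 list, Lct and Apoa4 under 2 factors and others also among the tissue or epithelial markers. Of 6 genes driven by HNF4, 6 were higher in small intestine, with a median effect of -8.86. Apoa1, the main protein of high density lipoprotein, was at 7035 and 9.01 RPKM by cDNA fragmentation and at 3608 and 28.9 in the rRNA-depleted libraries. Mttp, the transfer protein that loads lipid onto lipoproteins, was at 551 and 0.622, and at 437 and 2.22 RPKM. Fabp2, an intracellular carrier of fatty acids, was at 37853 and 4441, and at 3243 and 403 RPKM, a smaller gap of -3.42 ± 0.39. Whether either HNF4 receptor bears on these differences was not tested.

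Of 8 genes driven by CDX, 7 were found, 4 were higher in small intestine (Sis, Lct, Cdh17 and Krt20), 1 was higher in colon (Car1) and 2 did not pass (Gucy2c and Mep1a), with a median effect of -1.41. Car1, a carbonic anhydrase of colonocytes, had no reads in the cDNA fragmented small intestine library and stood at 52340 RPKM in colon, and at 26.8 and 5915 RPKM in the rRNA-depleted libraries. Cdh17, the liver-intestine cadherin, was at 1048 and 323, and 546 and 409 RPKM. This list thus held genes of both directions. All 3 genes reported to fall without GATA4, Lct, Fabp1 and Apoa4, were higher in small intestine, with a median effect of -9.11, and all 3 are also among the 5 small intestine markers used above to check the labels. Lct, the lactase gene, was at 99.98 and 0.0262 RPKM by cDNA fragmentation and at 494 and 4.15 in the rRNA-depleted libraries. Of the ileal genes that rise without GATA4, Fabp6 was higher in small intestine (-5.72 ± 0.49, limma adjusted p = 8.54e-17) and Slc10a2, the ileal bile acid transporter, did not pass (0.72 ± 0.40, limma adjusted p = 0.27). None of these counts tests a link between a factor and its target.

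**Figure D5:**
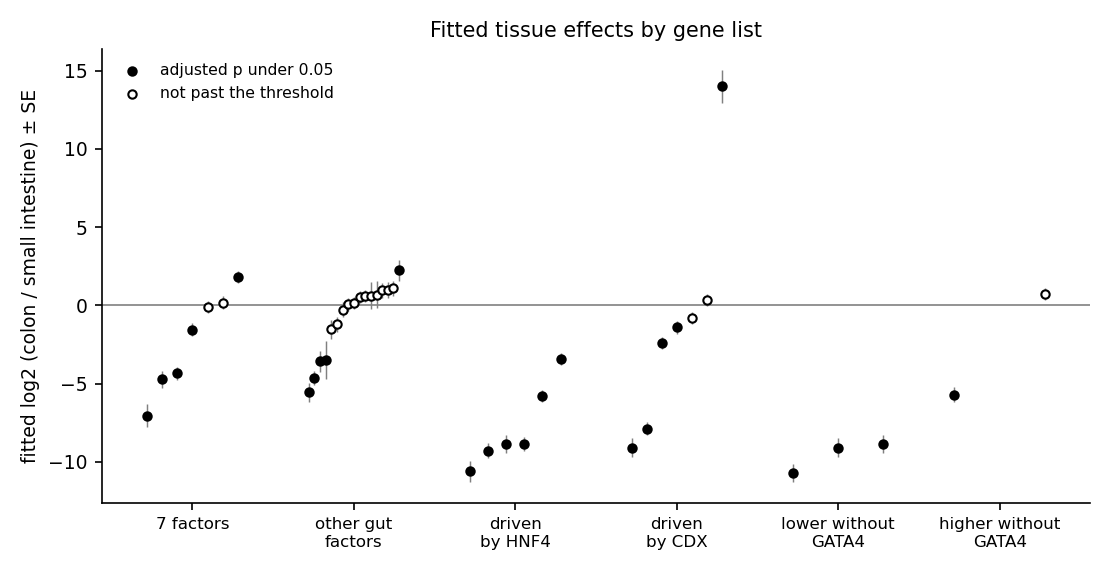
Fitted log2 ratio of colon to small intestine from limma (points; bars 1 SE, 2 libraries per tissue) for the 7 factors and for each gene list, with filled points past an adjusted p of 0.05. The 6 genes driven by HNF4 lie below 0, and the CDX list runs from -9.11 for Lct to 14.0 for Car1.

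Markers of other cell types were listed beside the factors. Smooth muscle genes were higher in colon in 7 of 7, and 3 of 5 leukocyte genes were higher in small intestine. Fibroblast and endothelial genes passed the test in 0 of 5 and 0 of 4. Enteric neuron and glia genes were higher in colon in 1 of 6, adipocyte genes in 1 of 3 and acinar genes in 1 of 5 tested, and the 1 red blood cell gene found did not pass. Of 8 epithelial genes 3 were higher in small intestine, 1 was higher in colon and 4 did not pass. Hox genes of the distal gut were higher in colon in 5 of 6, with Hoxb13 at 0.0339 and 46.0 RPKM by cDNA fragmentation and at 0 and 18.8 in the rRNA-depleted libraries. In the strand-keeping rRNA-depleted libraries the 7 factors had 0 to 2 reads each on the opposite strand. The share was largest in colon for Gata4 (1 of 5 reads) and Gata5 (2 of 14), and elsewhere at most 1 read lay on that strand.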

How the data were processed

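Reads of small intestine and colon, 1 library per tissue and protocol, were analysed. The authors had matched 35 colors per SOLiD read to RefSeq exons of mm9 and to exon-exon junctions, with up to 3 mismatches, and deposited the position, strand and mismatches of each uniquely placed read, with no normalized values. The study's methods name BioScope for matching to the whole genome, whereas the run reports of these files describe a match to exons and give no program version. Reads on exon blocks were counted here per condensed gene, named from GENCODE M1 (same assembly), with 3 bases of tolerance at block borders, and the totals equal those in the authors' reports. A symbol with several exon groups was represented by the longest. RPKM used all uniquely placed reads. Repeated start points were kept.

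Genes with at least 10 reads summed were fitted with limma 3.58.1 (voom weights, R 4.3.3) on log2 counts per 1000000 reads with TMM factors, protocol and tissue as terms, and Benjamini-Hochberg adjustment over all of them. A negative binomial count model was planned as the main fit and another as an alternative, and neither was run. The files hold single reads, and the counts made from them here were fitted with limma in their place. Ratios within a protocol carry exact conditional binomial 95% intervals for counting error only, since reads without molecular identifiers are not independent molecules. A count of 0 was set against 3 reads. The fit was also run on simulated data that held no tissue effect differing between protocols, so that case was not checked. Deposited run reports were read for totals and the kind of match. The 7 factors and all gene lists were chosen with earlier results of these data known. From those lists 2 genes are not reported here and enter no list count, and 1 gene each of the CDX and red blood cell lists was not matched by name. All 7 factors are described, and of each other list the 3 genes of highest mean RPKM and the 2 with the largest effect past the test could be named. Other list genes in the text were chosen after their values were seen. Sequences came from the mm9 genome by coordinates.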

Additional observations from a re-analysis of the deposited data

Results flagged for a closer look

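Cdx2 was marked because its direction differed between the protocols, with log2 of colon over small intestine at 1.88 in the cDNA fragmented pair and -1.01 in the ribosomal RNA-depleted pair, both by total reads and both beyond counting error. Each protocol has 1 library per tissue, so the difference between the protocols was not tested. The pancreatic acinar genes Cela1 and Ctrb1 were marked for the same reason. Cela1 gave 4.90 and -0.77, and Ctrb1 gave 9.07 and -9.09, on the same scale. Pnlip gave -9.30 in the ribosomal RNA-depleted pair, and in the cDNA fragmented pair it had 0 reads in small intestine and 2229 in colon.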

How the results depend on the processing

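No paired analysis was possible because the labels carry no replicate numbers and no source ties libraries to animals. The protocol term of the fit sets colon against small intestine within each protocol. The count of factors called by the 3-fold rule in the cDNA fragmented pair was 5, and it became 4 with TMM factors, and 3 both with median-of-ratios size factors and with start points in place of reads. The 4 calls of the ribosomal RNA-depleted pair stayed at 3 to 4 under every setting run. The limma fit called 5 factors and 2213 genes, and called 4 to 5 factors and 1666 to 2430 genes under the alternatives that kept the protocol term. With library totals and no factor, 798 genes were called higher in small intestine and 1632 in colon, against 1265 and 948. Without the protocol term it called 0 and 0. Leaving out a library, also without that term and with the lone sample of a tissue assumed to vary like the rest, gave 0 to 1 factors and 111 to 146 genes. The sign of Hnf4a turned with no factor (0.28), and over the left-out libraries its effect ran from -0.61 to 0.40 and that of Cdx2 from -0.92 to 1.01. No other member changed sign in any setting. Among ratios within a protocol 48 of 103 alternative values lay outside the counting interval of the main value, mostly under rescaling. The planned second count model was not run. The mean-trend fit, the epithelial sum without Krt20 and the removal of the most-read start point were chosen after seeing the data. Depth limits Gata4 and Gata5 in colon, with 5 to 35 reads per library.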
